A study of Mus musculus with 35 samples.

Results

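Cenpe and 6 further genes of chromosome attachment and cell cleavage were followed through neuroblastoma formation in TH-MYCN mice: Cenpa, Cenph, Spc24, Zwint, Kif20a and Kif23. Members were found by gene symbol, current or older, in the authors' normalized table, and each of the 7 genes, of 7804 named genes in all, had 1 probe among the 12688 of that table. The series table holds 33012 probes, of which 20324 have no name pairing. Cenpe, Cenpa, Cenph, Kif20a and Kif23 stood under their current symbols, whereas Spc24 was listed as 2410030K01Rik and Zwint as D10Ertd749e. The series title names CENPE as a neuroblastoma target, which makes its level over disease stages a comparison the design holds.

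All mice were homozygous for TH-MYCN, a transgene in which the tyrosine hydroxylase promoter drives MYCN in the sympathoadrenal lineage, and no group without the transgene was analysed here. Single-colour oligonucleotide arrays were hybridised with RNA from frozen tissue sections. Set 1 comprised 24 tumors in 4 size classes with 6 tumors apiece, small (0.05 to 0.1 g, 28 to 42 days of life), medium (0.24 to 0.46 g, 35 to 42 days), large (0.76 to 1.3 g, 35 to 46 days) and very large (1.6 to 3 g, 35 to 45 days). Set 2 held sympathetic ganglia with foci of neuroblast hyperplasia, harvested on day 0 (5 arrays), day 7 (2 arrays) or day 14 (2 arrays) of life, together with 2 small tumors that were also arrayed in set 1, as small replicates 6 and 3. The labels do not say whether a ganglion array came from 1 animal or from several, so p-values measure the spread between these arrays.

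The kinetochore is the protein plate on each chromosome that captures spindle microtubules. Its base is a centromere that carries the histone variant Cenpa and the constitutive network to which Cenph belongs, its outer plate holds Spc24 and Zwint, and its outermost corona carries Cenpe, a kinesin that walks chromosomes to the spindle equator. After the chromosomes part, Kif20a and Kif23 act at the spindle midzone, where the cleavage furrow is set up. Most of these genes are transcribed late in the cell cycle, in dividing cells, through promoter elements known as the CHR and the CCAAT box, and MYC family proteins bind the E-box.

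The promoters of the members that the RefSeq table of GRCm38.p6 holds (5 of 7) are printed to show which carry those elements. Each sequence runs 5′ to 3′ on the gene's strand from 125 bases before the annotated start to 25 bases after it, and capitals mark a CHR (TTTGAA) or a CCAAT box (CCAAT, or ATTGG where it lies on the opposite strand).
Cenpe (GRCm38.p6 chr3:135212438-135212587, plus strand): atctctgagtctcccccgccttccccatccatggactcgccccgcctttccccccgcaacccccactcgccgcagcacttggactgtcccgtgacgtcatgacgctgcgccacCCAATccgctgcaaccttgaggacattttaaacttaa
Cenpa (GRCm38.p6 chr5:30666761-30666910, plus strand): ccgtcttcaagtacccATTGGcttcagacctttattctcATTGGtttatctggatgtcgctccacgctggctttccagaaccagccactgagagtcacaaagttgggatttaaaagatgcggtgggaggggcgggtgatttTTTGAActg
Cenph (GRCm38.p6 chr13:100775875-100776024, minus strand): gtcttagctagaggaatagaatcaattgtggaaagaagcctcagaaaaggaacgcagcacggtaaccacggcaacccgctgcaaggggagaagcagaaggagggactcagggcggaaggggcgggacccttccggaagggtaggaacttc
Zwint (GRCm38.p6 chr10:72654721-72654870, plus strand): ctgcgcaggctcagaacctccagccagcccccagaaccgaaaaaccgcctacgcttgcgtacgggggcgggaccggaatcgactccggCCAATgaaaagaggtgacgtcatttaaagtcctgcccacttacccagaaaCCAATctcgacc
Kif23 (GRCm38.p6 chr9:61946775-61946924, minus strand): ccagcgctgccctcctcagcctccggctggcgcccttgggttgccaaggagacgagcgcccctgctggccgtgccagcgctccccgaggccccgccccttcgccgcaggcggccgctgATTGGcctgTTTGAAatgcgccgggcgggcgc
Spc24 and Kif20a were not among the promoters used here.

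Over the table's full window of 250 bases before to 50 after the start, read on both strands, TTTGAA occurred in 2 of the 5 promoters, those of Cenpa and Kif23, and in 17.9% of all 32851 promoters. In Cenpa it began at base 17 after the start, and in Kif23 at base 3. CCAAT occurred in all 5 promoters, against 37.4% of all promoters. It began 12 bases before the start of Cenpe, whereas Zwint held it 37 bases before the start and again at base 14 after it, and Cenph at base 32, outside the printed stretch. The CHR variant TTCGAA (1.56% of all promoters) and the E-box CACGTG (7.15%) had no match in the 5 windows. None of the searched motifs contains or overlaps another in these promoters, and a match is only a run of letters.

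In the ganglia and small tumors of set 2, the means of Cenpe, Cenpa, Cenph, Spc24, Kif20a and Kif23 were highest in the tumors and second highest at day 7. All 6 rose in the tumors over day 0, as did 18.4% of all probes. At day 7 against day 0, 4 of the 6 passed (Spc24 and Kif23 did not), where 1.47% of all probes were called higher. Between day 7 and day 14, 3 of the 6 passed as lower at day 14, where 0.465% of all probes were called in either direction. The calls between ganglion stages rest on few arrays, as given below. The day 14 means of the 6 genes differed from day 0 by -0.76 (Kif23) to 0.84 (Cenpa), with no call. Zwint had its highest level at day 14 and its lowest in the tumors. A moderated F test of limma for any difference among the 4 stages passed for 7 of 7 genes, at adjusted p between 6.5e-07 (Cenph) and 5.6e-04 (Spc24), against 41.9% of all 12688 probes. Levels are log2 intensities of the authors' normalized table, tests are limma's, and a call is an adjusted p under 0.05 (Benjamini-Hochberg, over every probe of the set's table). Groups of 2 arrays often separate: both day 14 arrays lay below both day 7 arrays in 26.8% of all probes. Such shares are given for day 7 above day 0 and day 14 below day 7 only. For other pairs of stages no such share is given, so a separation named below for any gene is description only.

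Cenpe, the corona kinesin, measured 11.84, 12.37, 12.94, 12.37 and 12.41 in day 0 replicates 1 to 5. Its level was 13.51 and 14.00 in the day 7 ganglia and 12.61 and 12.56 in the day 14 ganglia. The tumors reached 15.35 and 15.12. Both tumors lay above every ganglion, both day 7 arrays lay above every day 0 and day 14 array, and day 14 lay within the range of day 0. The tumors exceeded day 0 by 2.84 log2 units (SE 0.30, 7.18-fold, adjusted p = 1.2e-05) and day 7 by 1.48 (SE 0.35, adjusted p = 0.00697). Ordered by mean, the level ran from day 0 over day 14 and day 7 to the tumors. The neighbours day 0 and day 14 differed by 0.20 (adjusted p = 0.723) and day 14 and day 7 by 1.17 (adjusted p = 0.166), neither past the threshold.

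**Figure D1:**
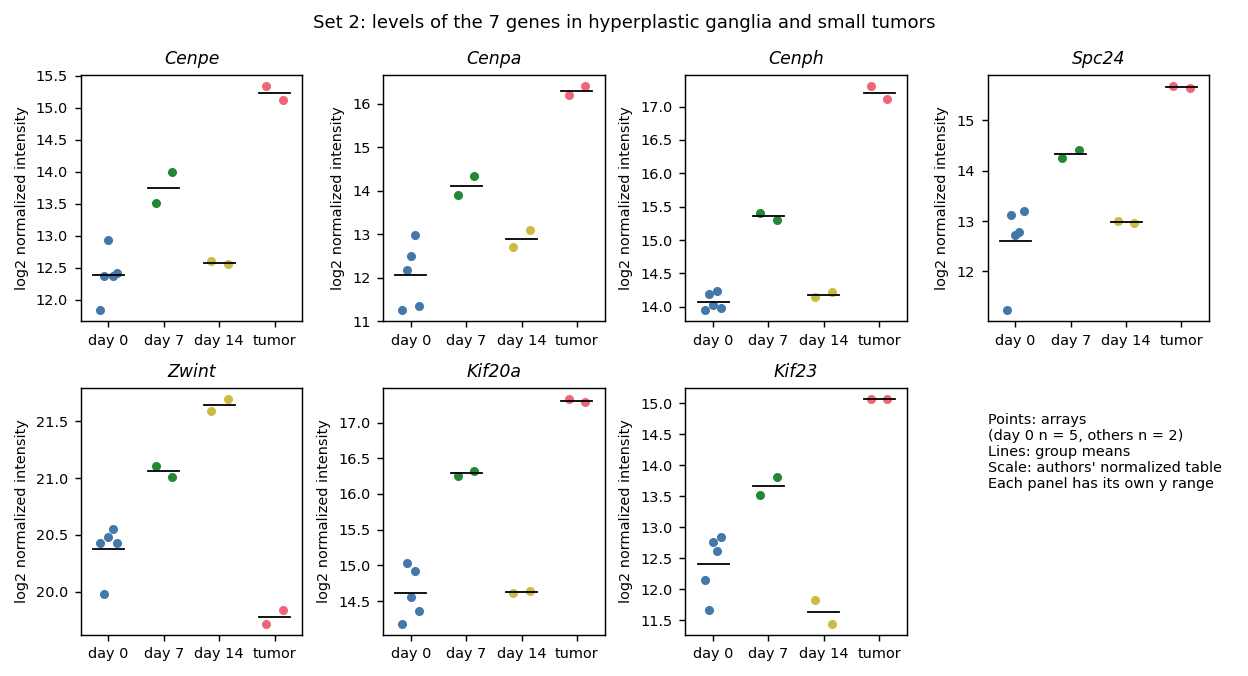
Log2 normalized intensity (vertical axis, own range in each panel) of the 7 genes in day 0, day 7 and day 14 ganglia and in the 2 small tumors of set 2; points are arrays and lines are group means. All 7 panels show both day 7 points above every day 0 point. All panels but 1 show the highest points in the tumors, and the Zwint panel shows the highest level at day 14 and the lowest in the tumors.

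Cenpa, the histone that marks the centromere, had the largest difference between tumors and day 0 among the 7. Its day 0 levels were 11.26, 12.19, 12.50, 13.00 and 11.35, its day 7 levels 13.91 and 14.33, its day 14 levels 12.70 and 13.10, and its tumor levels 16.20 and 16.42. The groups separated except for day 0 and day 14. Tumors stood 4.25 above day 0 (SE 0.42, 19.0-fold, adjusted p = 8.3e-06).

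Cenph, a subunit of the constitutive centromere network, had the smallest spread of the 7 at day 0 (SD 0.13, n = 5). It measured 13.95, 14.19, 14.02, 14.24 and 13.99 at day 0, 15.41 and 15.31 at day 7, 14.15 and 14.21 at day 14, and 17.31 and 17.11 in the tumors. Its day 14 arrays lay inside the day 0 range and every other pair of stages separated. The tumor difference from day 0 was 3.13 (SE 0.18, 8.76-fold, adjusted p = 1.2e-07).

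Spc24, a subunit of the Ndc80 complex that grips the microtubule, measured 11.23, 13.12, 12.72, 12.79 and 13.20 at day 0. It reached 14.26 and 14.42 at day 7, 13.01 and 12.95 at day 14, and 15.69 and 15.65 in the tumors. Day 0 replicate 1 stood apart below the other day 0 arrays. The tumors exceeded day 0 by 3.06 (SE 0.43, adjusted p = 1.3e-04). Their margin of 1.33 over day 7 did not pass (SE 0.51, adjusted p = 0.0666), and it passed without day 0 replicate 1 (adjusted p = 0.00195). Both tumors lay above both day 7 arrays, for which no share of all probes is given.

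Of the midzone kinesins, Kif20a brings the chromosomal passenger complex to the midzone and Kif23 is the motor of centralspindlin, which bundles midzone microtubules. Kif20a measured 14.18, 15.04, 14.55, 14.92 and 14.37 at day 0, 16.25 and 16.32 at day 7, 14.62 and 14.64 at day 14, and 17.33 and 17.29 in the tumors. Kif23 measured 12.15, 11.67, 12.76, 12.61 and 12.84 at day 0, 13.53 and 13.81 at day 7, 11.84 and 11.45 at day 14, and 15.07 and 15.06 in the tumors. The tumor and day 7 arrays of both genes stood clear of every other stage, and Kif23 alone of the 6 had a day 14 mean below its day 0 mean (by 0.76, adjusted p = 0.168, with overlapping arrays). Tumors exceeded day 0 by 2.70 for Kif20a (SE 0.23, adjusted p = 2.7e-06) and by 2.66 for Kif23 (SE 0.33, adjusted p = 5.0e-05).

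Zwint binds the outer plate and helps recruit the checkpoint proteins there, and its rat form was also isolated from brain as a partner of the synaptic protein SNAP-25. Its levels were 20.43, 19.98, 20.48, 20.55 and 20.43 at day 0, 21.11 and 21.01 at day 7, 21.59 and 21.70 at day 14, and 19.72 and 19.84 in the tumors. On this normalized scale no stage overlapped another, which is description only for groups of 2 arrays. Zwint rose from day 0 to day 7 by 0.69 (SE 0.15, adjusted p = 0.0389) and from day 0 to day 14 by 1.27 (SE 0.15, adjusted p = 5.3e-04). In the tumors it was lower than at day 0 by 0.60 (log2 difference -0.60, SE 0.15, adjusted p = 0.00776), than at day 7 by 1.28 (-1.28, adjusted p = 2.2e-04) and than at day 14 by 1.86 (-1.86, adjusted p = 8.2e-06).

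The Zwint probe was among the brightest of its arrays, above 98.41% of probes or more on each. Its deposited intensities before normalization were 338649 to 1414557 at day 0, 1043855 and 1412664 at day 7, 2037954 and 2141812 at day 14, and 794960 and 938454 in the tumors. On that scale the tumors lay inside the day 0 range and still below both later stages, and the tumor difference from day 0 turned to 0.15. The fall against day 0 also missed the threshold after median centring (-0.55, adjusted p = 0.443), with day 0 replicates 1 and 2 as the only day 0 arrays (-0.42, adjusted p = 0.0767), and without set 2 tumor replicate 1 (adjusted p = 0.0834). The fall against day 14 missed it with centred arrays (-1.46, adjusted p = 0.0732) and unnormalized (-1.27, adjusted p = 0.268), as did the fall against day 7 (-0.94, adjusted p = 0.289, and -0.49, adjusted p = 0.707). The rise from day 0 to day 14 kept its direction there without passing (0.92 and 1.43).

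Across the stages, the tumors differed from day 0 in 7 of 7 genes, 6 higher and 1 lower, where 37.3% of all probes were called, 18.4% of all probes higher. Against day 7, 6 of 7 differed (32.2% of all probes), and against day 14 again 7 of 7 (39.7%). The margins over day 14 were 2.65 for Cenpe, 3.41 for Cenpa, 3.03 for Cenph, 2.69 for Spc24, 2.68 for Kif20a and 3.42 for Kif23. Against day 7 the count fell to 2 without day 7 replicate 1 and to 3 without set 2 tumor replicate 1. It was 3 with the series table centred on medians or unnormalized.

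Between day 0 and day 7, 5 of 7 genes rose, where 1.99% of all probes were called and 1.47% called higher. They were Cenpe by 1.37 (adjusted p = 0.0365), Cenpa by 2.06 (0.0310), Cenph by 1.28 (0.00620), Zwint by 0.69 and Kif20a by 1.68 (0.00558), all as log2 differences. Spc24 differed by 1.73 (adjusted p = 0.0625) and Kif23 by 1.26 (adjusted p = 0.0754), and both passed without day 0 replicate 2 (Kif23 at 0.0464), as Spc24 did without day 0 replicate 1 (0.00618). In all 7 genes both day 7 arrays lay above all 5 day 0 arrays, as did 11.3% of all probes. The count was 2 with the series table quantile normalized here and 0 with that table centred on medians or unnormalized, with positive differences throughout. The calls rest on few arrays: 0 genes passed without day 7 replicate 1 or without day 7 replicate 2, 3 without day 0 replicate 5, and 2 without any 1 of the day 14 or tumor arrays, which lend the fit its spread.

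From day 7 to day 14, Cenph fell by 1.17 (adjusted p = 0.0386), Kif20a fell by 1.66 (adjusted p = 0.0260) and Kif23 fell by 2.02 (adjusted p = 0.0488), so 3 of 7 were called where 0.465% of all probes were. Both day 14 arrays lay below both day 7 arrays in 6 genes, as in 26.8% of all probes, and above them in Zwint (0.58, adjusted p = 0.178). All 3 calls were lost with the series table under each of its scalings, and none of them held without day 0 replicate 3 or without any 1 of the day 7, day 14 or tumor arrays. Day 14 against day 0 gave 1 call of 7, Zwint, where 10.2% of all probes were called, and without day 0 replicate 2 Kif23 passed as well (adjusted p = 0.0423).

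Markers of other tissues differed over the same stages. The mean log2 level of 8 skeletal muscle markers was 13.15 to 14.33 on the day 0 arrays and 17.33 and 17.41 in the tumors, with 6 risen and 2 fallen. That of 7 adipocyte markers was 14.32 to 15.42 at day 0, 15.86 and 16.55 at day 7, and 18.00 and 18.26 in the tumors, so the day 7 arrays lay above every day 0 array. Fibroblast markers (9) averaged 17.43 at day 0 and 15.95 in the tumors, with 7 fallen and 0 risen. Erythroid markers (3) averaged 16.15, 17.26 and 14.95 at days 0, 7 and 14 and 16.32 in the tumors, with 0 called in tumors against day 0. Myeloid markers (8) stood at 13.14 to 13.59 at day 0 and at 14.97 and 14.98 in the tumors. Schwann cell and satellite glia markers (6) went from 15.13 at day 0 over 15.61 and 16.27 to 13.54 in the tumors, an order of stages shared with Zwint. Noradrenergic markers (13) were lower in the tumors (17.04 and 17.10) than at day 0 (17.89 to 18.74), with 9 fallen and 0 risen. Among these 13 noradrenergic markers, the lowest percentile on any array ran from 5.78 (Dbh) to 97.84 (Chgb). In other lists it went down to 0.5, as for Tnnt3 of the muscle markers and Cd14 of the myeloid markers. It was 93.23 for Th, the rate-limiting enzyme of catecholamine synthesis, whose level ran from 18.89 to 21.92. The part of these tissues in the results was not tested, and in bulk tissue fewer cells of a type and less RNA per cell cannot be told apart.

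The wider mitotic machinery was read from lists of known genes, and their counts and medians include the members. Cenpa and Cenph belong to the inner kinetochore list, Spc24 and Zwint to the outer one, Cenpe to the corona list, and Kif20a and Kif23 to the midzone list. Of 13 measured genes of the inner kinetochore, 11 rose in tumors against day 0 and 0 fell, with a median difference of 2.28. Over all probes 37.3% were called and 18.4% rose in this comparison, with a median of 0.01, and the list counts that follow stand against those shares. Cenph, Cenpn, Cenpa and Cenpm led by p, with 2.76 for Cenpn and 2.28 for Cenpm, both of the same constitutive network. Cenpc1 (0.79, adjusted p = 0.0937) and Cenpt (-0.62, adjusted p = 0.0950) did not pass.

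Of 8 outer kinetochore genes, 7 rose and 1, Zwint, fell (median 2.89). Dsn1 of the Mis12 complex rose by 2.73, and Spc25 and Nuf2, partners of Spc24 in the Ndc80 complex, by 3.73 and 3.10. Of 8 genes of the corona and the spindle checkpoint, 6 rose and 0 fell (median 2.14), among them the checkpoint kinase Bub1 by 3.70 and Mad2l1, which holds back anaphase, by 3.04. A second Mad2l1 probe gave 2.07. Bub3 (1.10, adjusted p = 0.0772) and Mad1l1 (-0.19, adjusted p = 0.818) did not pass.

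All 3 measured genes of the chromosomal passenger complex rose (median 3.09), Birc5 by 3.90, Cdca8 by 3.09 and Incenp by 1.53. All 7 midzone and cytokinesis genes, Kif20a and Kif23 among them, rose (median 2.70). The mitotic kinase Plk1 stood at 4.01 and Racgap1, the partner of Kif23 in centralspindlin, at 2.98. The kinesins Kif18a and Kif18b rose by 2.94 and 3.02. Mitotic entry and exit genes rose in 10 of 12 cases, such as Cdc20 (2.93) and Ccna2 (3.33), and Ube2c, a ubiquitin conjugating enzyme of the anaphase promoting complex, fell by 0.88 (adjusted p = 7.1e-05). Replication licensing and G1/S genes rose in 14 of 14 cases (median 2.99), Mcm4 by 2.28 and Mcm5 by 3.29 among them.

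At day 7 the same lists held fewer calls, and so did all probes (1.99% called against day 0, 1.47% higher). In the inner kinetochore 3 of 13 rose over day 0, Cenpn (1.20, adjusted p = 0.0329) beside Cenpa and Cenph. In the outer kinetochore 2 of 8 rose, Dsn1 (0.91, adjusted p = 0.0267) and Zwint. Cenpe was the 1 call of 8 in the corona and checkpoint list, and 3 of 7 midzone genes rose, Plk1 (1.21, adjusted p = 0.0365) and Racgap1 (1.06, adjusted p = 0.0298) with Kif20a. The passenger complex had 0 of 3, other mitotic kinesins 0 of 2, mitotic entry and exit 3 of 12 and replication 6 of 14, and 0 genes of any list fell. List medians ran from 0.55 to 1.25, and the median of all probes was 0.01.

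**Figure D2:**
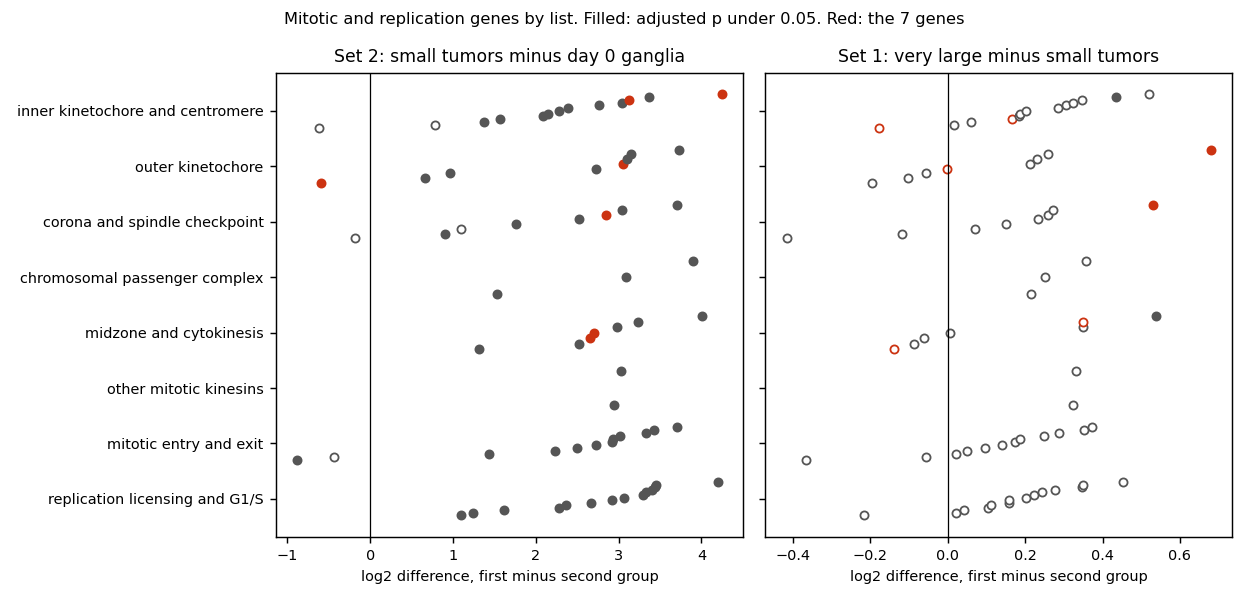
Log2 difference (horizontal axis) of each measured gene of 8 lists, for small tumors minus day 0 ganglia in set 2 (left) and very large minus small tumors in set 1 (right, narrower range); filled points passed at adjusted p under 0.05 and red points are the 7 genes. On the left most points lie between 1 and 4 and are filled, and on the right 4 points are filled, Cenpe, Spc24, Cenpp and Cit.

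Among the 24 tumors of set 1 the differences were far smaller. Levels there are log2 intensities after quantile normalization of the deposited values, and they are not on the scale of set 2. Cenpe and Spc24 were higher in very large than in small tumors, and the other 5 genes did not pass. That made 2 of 7, where 4.69% of all 32996 probes were called and 2.25% called higher.

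Cenpe ran from 13.53 over a median of 13.80 to 14.00 in small tumors and from 13.54 over 14.18 to 14.39 in medium ones. Large tumors ran from 13.82 over 14.20 to 14.77, and very large ones from 14.04 over 14.36 to 14.54. Every very large tumor lay above every small one, which held for Cenpe and Kif20a and for 1.71% of all probes, and medium and large tumors overlapped both. The difference between the outer classes was 0.53 (SE 0.15, 1.45-fold, adjusted p = 0.0348), and the slope was 0.37 per 10-fold weight (SE 0.09, adjusted p = 0.0172). Medium and large tumors exceeded small ones by 0.30 (adjusted p = 0.462) and 0.43 (adjusted p = 0.139), and large tumors exceeded medium ones by 0.12 and very large ones exceeded large ones by 0.10, neither of which passed.

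Spc24 ran from 12.84 over 13.85 to 14.14 in small tumors, from 13.84 over 14.03 to 14.35 in medium ones, from 13.98 over 14.16 to 14.53 in large ones and from 13.96 over 14.44 to 14.72 in very large ones. The outer classes overlapped. Very large exceeded small tumors by 0.68 (SE 0.17, 1.60-fold, adjusted p = 0.0202), with a slope of 0.50 per 10-fold weight (SE 0.10, adjusted p = 0.00369).

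Kif20a showed separate outer classes without a call. Small tumors ran from 16.83 over 17.14 to 17.24 and very large ones from 17.33 over 17.39 to 17.64, so the highest small tumor lay below the lowest very large one. The difference was 0.35 (SE 0.17, adjusted p = 0.268) and the slope 0.30 (adjusted p = 0.107). Large tumors exceeded small ones by 0.48 (adjusted p = 0.145), and by 0.27 without large replicate 6, which stood at 18.58. Without that tumor the Kif20a slope was lower, at 0.24, and passed (adjusted p = 0.0470).

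The remaining 4 genes showed no call in any size comparison. Very large against small tumors gave 0.17 for Cenpa (adjusted p = 0.508), -0.18 for Cenph (0.437), -0.00 for Zwint (0.994) and -0.14 for Kif23 (0.641). Their size classes overlapped throughout, with class means of 17.11 to 17.27 for Cenpa, 15.98 to 16.15 for Cenph, 18.60 to 18.78 for Zwint and 14.98 to 15.14 for Kif23. Zwint, which passed the F test over the stages of set 2, spread over a range of 0.17 between class means here. That lay within the SD of 0.13 to 0.24 of its classes.

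Medium against small and large against small tumors gave 0 of 7 calls (0.961% and 2.31% of all probes). Large against medium and very large against large tumors gave 0 of 7, and 0% of all probes. Before adjustment, limma's p against small tumors was 0.0495 for Cenpe in medium ones. In large ones it was 0.00754 for Cenpe, 0.0118 for Spc24 and 0.00816 for Kif20a. The F test over the 4 classes passed for 0 of 7 (2.25% of all probes at adjusted p under 0.05). Its unadjusted p was 0.00795 for Cenpe, 0.00450 for Spc24 and 0.0471 for Kif20a. The share of all probes with an unadjusted p under 0.05 is not given, so these values are description only. The trend with weight called 2 of 7, Cenpe and Spc24 (5.59% of all probes).

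**Figure D3:**
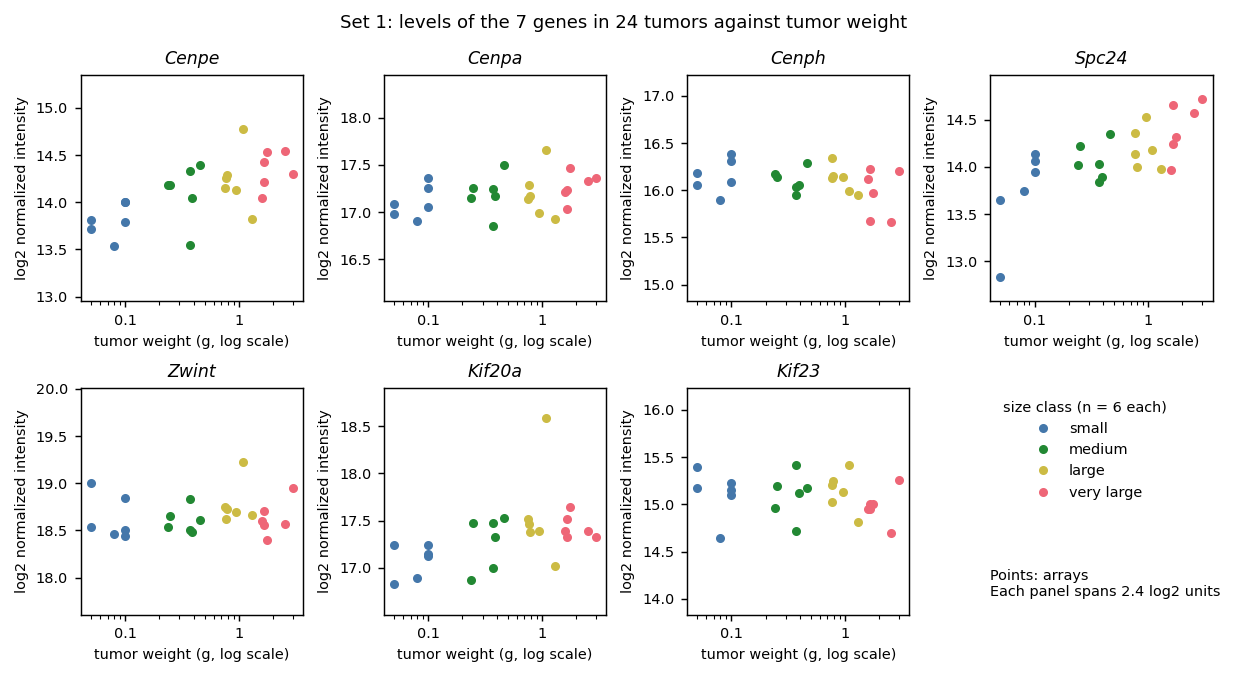
Log2 normalized intensity of the 7 genes (vertical axis, 2.4 log2 units in each panel) against tumor weight in grams (log axis) in the 24 tumors of set 1, coloured by size class (n = 6 each). Cenpe and Spc24 climb with weight, Cenpa, Cenph, Zwint and Kif23 stay level within their scatter, and 1 large tumor of 1.09 g stands apart at 18.58 in Kif20a.

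Neither call between the outer size classes held under another scaling of the arrays. After median centring, Cenpe differed by 0.29 (adjusted p = 0.355) and Spc24 by 0.44 (adjusted p = 0.242). Without normalization the differences were 0.02 and 0.17, and deposited Cenpe intensities ran from 11127 to 18543 in small and from 9324 to 23503 in very large tumors. Array medians before scaling were 871.24 to 1165.44 in small tumors and 598.65 to 1160.95 in very large ones. Of all 32996 probes, 1549 were called after quantile normalization, 1136 after median centring and 552 without normalization.

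Neither call held with markers of other tissues or with age in the model, where most calls over all probes were lost too. Skeletal muscle markers (8) averaged 16.00 in small tumors (10.90 to 18.05 per array) and 11.78 in very large ones (9.32 to 15.79), with 5 fallen and 0 risen. Adipocyte markers (7) averaged 16.01 and 13.97, Schwann cell markers (6) 12.89 and 10.41, and erythroid markers (3) 13.84 and 16.64. Fibroblast markers (9) averaged 15.34 and 14.28, with 5 fallen and 1 risen, and noradrenergic markers (13) 16.31 and 16.02, also with 5 fallen and 1 risen. With the muscle and adipocyte means in the model Cenpe differed by 0.38 (adjusted p = 0.567) and Spc24 by 0.37 (adjusted p = 0.663). With life span as a covariate the differences were 0.56 (adjusted p = 0.200) and 0.55 (adjusted p = 0.288). Of all 32996 probes, 1549 were called without covariates, 272 with life span and 19 with the muscle and adipocyte means.

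Leaving out single tumors also changed the calls. The Cenpe difference stayed between 0.48 and 0.59 whichever tumor was left out, with an adjusted p of 0.0172 to 0.0876, and missed the threshold on leaving out any 1 of small replicates 3, 4 and 6 and of very large replicates 2 to 5. The Spc24 difference ran from 0.50 to 0.77, lowest without small replicate 1, and its slope from 0.37 to 0.54. The Spc24 difference missed the threshold without small replicate 4 (0.0500), very large replicate 3 (0.0531) or very large replicate 5 (0.0590). The Cenpe slope missed it without small replicate 4 (0.0566) or 6 (0.0522).

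**Figure D4:**
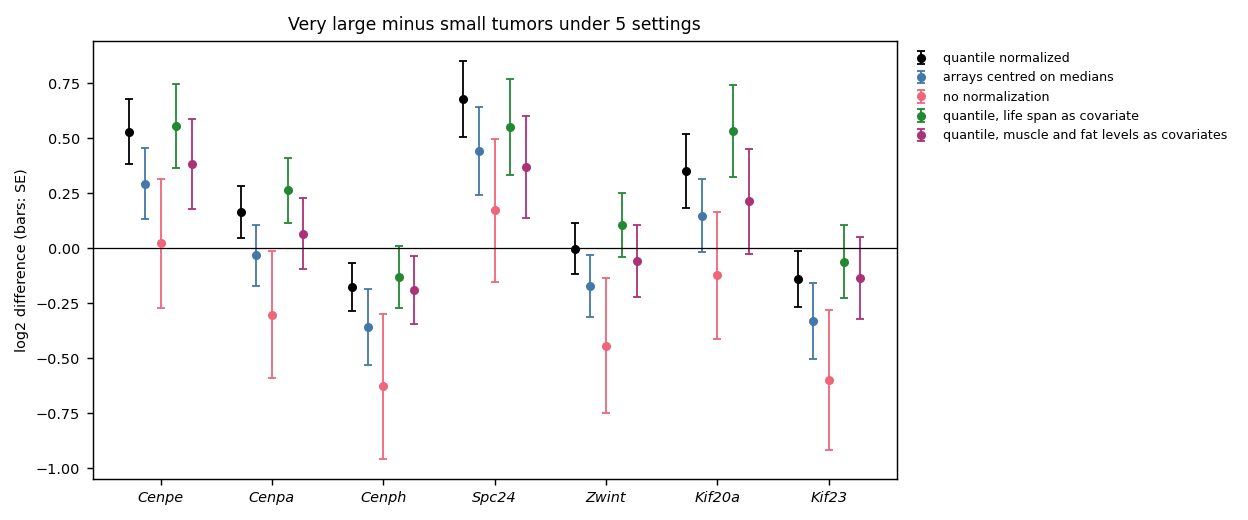
Very large minus small tumors as log2 difference (vertical axis, points with SE bars) for the 7 genes under 5 settings of the fit. Cenpe and Spc24 stay above 0 under all 5, at 0.53 and 0.68 after quantile normalization and at 0.02 and 0.17 without normalization, and Cenpa, Zwint and Kif20a change sign between settings.

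In the wider lists, very large against small tumors gave 4 calls, to be read against the 4.69% of all probes called in this comparison. Besides Cenpe and Spc24 these were Cenpp of the inner kinetochore (0.43, adjusted p = 0.0468) and the cytokinesis kinase Cit (0.54, adjusted p = 0.0160), whose other probe gave 0.59 without passing (adjusted p = 0.469). That was 1 of 13 inner kinetochore, 1 of 8 outer kinetochore, 1 of 8 corona and checkpoint and 1 of 7 midzone genes. The passenger complex, other kinesins, mitotic entry and exit, and replication lists had 0 calls, and no list had a gene that fell. In the mitotic entry list a second probe of Cks2, a subunit of cyclin dependent kinases, did pass (0.58, adjusted p = 0.00431) beside 0.37 (adjusted p = 0.110) for the brighter probe. List medians ran from 0.01 to 0.33 and the median of all probes was 0.03.

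Within the 24 tumors, Cenpe varied with Cenpa, Kif20a and Spc24 and not clearly with the other 3 genes. Pearson's r was 0.80 with Cenpa (rho 0.70, permutation p = 2e-05, 6e-05 adjusted over the 6 relations computed), 0.77 with Kif20a (rho 0.78, permutation p = 1e-05, the smallest the resampling can give, 6e-05 adjusted) and 0.62 with Spc24 (rho 0.75, permutation p = 0.00107, 0.00214 adjusted). It was 0.33 with Zwint (rho 0.26, permutation p = 0.119, 0.15 adjusted), 0.32 with Kif23 (rho 0.22, permutation p = 0.125, 0.15 adjusted) and -0.15 with Cenph (rho -0.10, permutation p = 0.471). Without the 2 tumors farthest from the median Cenpe level, small replicate 6 (13.53) and medium replicate 4 (13.54), the values were 0.73, 0.75 and 0.61 for the first 3 genes, 0.21 for Zwint, -0.01 for Kif23 and -0.35 for Cenph. The relation with Zwint passed without small replicate 4 (r 0.48, adjusted permutation p = 0.0293) and that with Kif23 without very large replicate 4 (r 0.49, adjusted permutation p = 0.0284).

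Inside the size classes of 6, r of Cenpe with Cenpa was 0.96 in small, 0.92 in medium, 0.96 in large and 0.31 in very large tumors. With Kif20a it was 0.46, 0.60, 0.95 and 0.56, and with Spc24 0.32, 0.74, 0.06 and 0.63. Cenph ranged from 0.91 in small to -0.70 in very large tumors. All values share the arrays and their scaling: without normalization all 6 relations passed, with r of 0.78 even for Cenph.

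The genes whose level over the 24 tumors was most like that of Cenpe were Polr1c, Prps1, Trmt6, Slc37a4, Srm, Dut, Apex1, Clk2, Cep295 and Pold2, with r from 0.91 for Polr1c to 0.85 for Pold2. Among the 7803 other named genes the median r was -0.01, and 0.795% had an r above 0.8. Cenpa ranked 60 and Kif20a 101 in that order, Spc24 508, Zwint 1954, Kif23 1969 and Cenph 4858. With arrays centred on their medians 6 of the 10 genes recurred among the 10 likest, and without normalization 3.

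Over the 11 arrays of set 2 the likest genes were Slc38a4, Nnmt, Exo1, Syce2, Tpx2, Cenpn, Cdc20, Fbxo5, Cdca7l and Igfbpl1, with r from 0.99 to 0.98. There 7.89% of the other named genes had an r above 0.8, and the stages stand apart, so these values order the genes and test nothing. Cenph ranked 25, Cenpa 41, Kif20a 45, Spc24 55, Kif23 129 and Zwint 5445 (r -0.41) in that order. Tpx2 and Cdc20 belong to the mitotic entry and exit list and Cenpn to the inner kinetochore list.

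By their titles, 2 tumors were arrayed in both sets, and their order can be compared between sets. Cenpe was lower in small replicate 6 than in small replicate 3 in set 1 (-0.25) and higher in set 2 (0.23). Cenph differed by -0.20 and 0.20, Kif20a by -0.25 and 0.04, Spc24 by -0.20 and 0.04, Zwint by 0.02 and -0.12, and Kif23 by -0.58 and 0.00. On these normalized levels the order of the 2 tumors was the same in both sets for Cenpa alone (-0.15 and -0.22). The sets were normalized in unlike ways, and some of these gaps are small. In deposited intensities small replicate 6 lay below small replicate 3 in both sets for every gene but Cenph. Cenpe measured 14716 against 18475 in set 1 and 34780 against 35514 in set 2. Cenph measured 73729 against 90763 in set 1 and 144119 against 141103 in set 2.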

How the data were processed

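The 7 members and the gene lists were chosen with earlier results of these data known. The authors deposited a series table of intensity values for all 35 arrays, not normalized between arrays (array medians 557.79 to 1292.16 in set 1 and 655.66 to 1513.66 in set 2), and a table of 12688 probes for set 2. Per the text deposited with that table, its intensity values are quantile normalized. Each of its ranks carries the highest of the 11 arrays, so its levels exceed array intensities. No source used here gives the imaging, the background correction or the probe filter. All columns of per-sample values were mapped (0 not mapped).

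Set 1 was quantile normalized here, 16 probes with a missing value were left out, and set 2 was tested on the authors' table. Intensities below the 1st percentile of a set were set to it (168 and 879 units) and log2 was taken, and no value of the 7 genes lay there. limma 3.58.1 (lmFit, eBayes with an intensity trend, R 4.3.3) fitted all groups of a set together, tests were two-sided, and the fit was tested on simulated data. Groups of 2 arrays borrow their spread from the other stages, and the number of arrays limits the precision. Correlations used 100000 resamples in Python 3.11.15 with numpy 2.4.6, scipy 1.17.1 and pandas 2.3.3. Figures were drawn with matplotlib 3.10.9. Symbols were updated through the RefSeq annotation of GRCm38.p6, used for names and promoters. Of several probes of a gene, that with the highest mean stood for it.

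Named genes were the 7 members, up to 4 genes of each list by smallest p in very large against small tumors and in set 2 tumors against day 0, and the 10 likest to Cenpe per set. Genes named as exceptions, at day 7 and for a second probe were chosen after their values were seen. Alternatives were median centring, no normalization, no floor, probes of high mean, no intensity trend, life span or muscle and adipocyte levels as covariates, the series table for set 2, either specimen number series of day 0, and each array left out.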

Additional observations from a re-analysis of the deposited data

Results flagged for a closer look

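Of 35 sets of values (7 genes in 5 groups of 5 or 6 arrays), 5 held a sample whose gap to its nearest neighbour was large for the range of its group by Dixon's criterion, which chance passes in about 1 of 20 sets. Spc24 was lowest in small tumor replicate 1, at 12.84 where the next tumor stood at 13.65. Large tumor replicate 6 was highest in Zwint, at 19.22 against 18.74 for the next, and in Kif20a, at 18.58 against 17.52. That array had the lowest median intensity of set 1 before scaling (557.79). Its deposited Zwint intensity (210422) was the lowest of the large tumors, which reached 611494. Its deposited Kif20a intensity (148514) lay inside the range of the large tumors (133112 to 218688). Neither gene stood out as high in that tumor before scaling. Spc24 was lowest in day 0 replicate 1, at 11.23 against 12.72, and Zwint was lowest in day 0 replicate 2, at 19.98 against 20.43.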

How the results depend on the processing

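The rise of Cenpe, Cenpa, Cenph, Spc24, Kif20a and Kif23 in set 2 tumors over day 0 kept its direction and its call under every alternative in which the gene was measured, and Cenpe lay between 2.66 and 3.86 there. Restricting the tables to the probes of highest mean left Cenph, Zwint and Kif20a in set 2, so 3 genes passed at day 7 against day 0, in tumors against each ganglion stage, and over the 4 stages, because fewer genes were tested. The calls of the same 6 genes in tumors against day 14 held likewise, and the F test over the 4 stages called 7 in every fit that left out 1 array. With the series table centred on medians or unnormalized, the F test over the 4 stages called 6. Without a floor, 2 genes passed at day 14 against day 7. With the series table quantile normalized here, 5 passed in tumors against day 7. Further calls lost under other settings are given below, and where no value is given beside a lost call the cause was not tested.

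With arrays of set 1 centred on their medians, the counts of calls for very large against small tumors and for the weight trend were 0 and 0, and Cenpe differed by 0.29. Differences that changed sign were, in medium against small tumors, Zwint (0.019) and Kif23 (0.015), in large against small tumors Cenpa (-0.018), Zwint (-0.014) and Kif23 (-0.038), in very large against small tumors Cenpa (-0.032), in large against medium tumors Cenph (-0.11), Zwint (-0.034) and Kif23 (-0.053), in very large against large tumors Cenpe (-0.041) and Cenpa (-0.013), and in the trend Cenpa (-0.021) and Zwint (-0.099). The correlation of Cenph with Cenpe was 0.16.

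Without normalization the counts were 0 for very large against small tumors, 0 for the trend, 0 for day 7 against day 0, 0 for day 14 against day 0, 0 for day 14 against day 7 and 3 for tumors against day 7, and Cenpe differed by 0.024 between the outer size classes. Signs changed for Cenpa (-0.12), Zwint (-0.11) and Kif23 (-0.14) in large against small tumors, Cenpa (-0.30) and Kif20a (-0.12) in very large against small, Cenph (-0.13), Zwint (-0.060) and Kif23 (-0.079) in large against medium, Cenpe (-0.21), Cenpa (-0.18) and Spc24 (-0.11) in very large against large, Cenpa (-0.21), Zwint (-0.29) and Kif20a (-0.041) in the trend, and Zwint (0.15) in set 2 tumors against day 0. Of the relations with Cenpe 6 passed, and r with Cenph was 0.78.

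With the series table of set 2 centred on medians, 0 genes passed at day 7 against day 0, 0 at day 14 against day 0, 0 at day 14 against day 7 and 3 in tumors against day 7. In that order 37, 306, 6 and 2230 of its 33012 probes were called. With the series table quantile normalized here, 2 passed at day 7 against day 0 and 0 at day 14 against day 7 (137 and 34 of all probes). With day 0 replicates 3 to 5 as the only day 0 arrays, 2 passed at day 14 against day 0 and 6 at day 14 against day 7. Calls over all 12688 probes rose there as well, from 1293 in the main fit to 3504 and from 59 to 930.

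With life span as a covariate the counts were 0 for very large against small tumors and 0 for the trend, and Cenpe differed by 0.56. Signs changed for Zwint (0.044) and Kif23 (0.035) in medium against small tumors, Cenph in large against small (0.0073), Zwint in very large against small (0.10) and Cenpa in large against medium (0.022). With the muscle and adipocyte means as covariates the counts were again 0 and 0, and Cenpe differed by 0.38. There Spc24 was -0.022 in medium against small tumors, Cenpa -0.028 in large against small, Cenph -0.0031 in large against medium and Zwint -0.0028 in the trend. Without an intensity trend in the prior 0 genes passed in very large against small tumors (Cenpe 0.53, adjusted p = 0.0759), 3 at day 7 against day 0 and 0 at day 14 against day 7.

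Leaving out 1 array at a time, the counts ran from 0 to 2 for very large against small tumors, from 1 to 3 for the trend, from 0 to 7 for day 7 against day 0, from 1 to 2 for day 14 against day 0, from 0 to 4 for day 14 against day 7 and from 2 to 7 for tumors against day 7, and the Cenpe difference between the outer size classes from 0.48 to 0.59. Differences that crossed 0 ran from -0.073 to 0.048 for Zwint and from -0.11 to 0.059 for Kif23 in medium against small tumors, from -0.0057 to 0.14 for Cenpa, from -0.087 to 0.011 for Cenph and from -0.069 to 0.090 for Kif23 in large against small, from -0.066 to 0.073 for Zwint in very large against small, from -0.095 to 0.058 for Cenpa, from -0.034 to 0.049 for Cenph and from -0.035 to 0.11 for Kif23 in large against medium, from -0.24 to 0.076 for Kif20a in very large against large, and from -0.088 to 0.13 for Kif20a in day 14 against day 0. No paired analysis was possible because the labels give no replicate numbers that groups could share.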

Other observations

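Zwint, the 1 member that fell in the tumors of set 2, had its likest genes over the 11 arrays outside the mitotic lists. So did Cenpe over the 24 tumors of set 1 for its 10 likest genes, and the trait is not particular to Zwint. The order for Zwint was taken after its values were seen. The 10 likest were S100a6, Ltbr, Ift22, Ccdc113, Tmbim1, Nptxr, Frmd6, Crabp1, Tmem38a and Sorl1, with r from 0.96 to 0.95. S100a6 encodes a calcium binding protein, Nptxr a neuronal pentraxin receptor and Crabp1 a retinoic acid binding protein. At day 14 against day 0, 1 of 8 outer kinetochore genes, Zwint, and 2 of 14 replication licensing and G1/S genes passed as higher. No gene of the other lists passed, and over all probes 706 of 12688 were called higher. The 2 replication genes were Ccne1, the cyclin of entry into S phase (1.27, adjusted p = 0.00341), and E2f1, a transcription factor of S phase genes (1.76, adjusted p = 0.00733). Both, unlike Zwint, were also above day 0 in the tumors (1.61 and 2.92).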
